A study of Mus musculus with 6 samples.

Results

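Molecular motors were examined in mouse memory B cells that bind the hapten NP, which were sorted from spleen. All gene symbols of the count table that begin with Kif or Klc and a number, with Dync, Dynl, Dctn or Dnah, or with Myo and a number were taken, which gave 108 of 35186 symbols. They comprised 17 transport kinesins, 4 kinesin light chains, 13 mitotic kinesins, 7 other kinesins, 5 subunits of cytoplasmic dynein, 9 dynein light chains, 2 subunits of dynein-2, 6 dynactin subunits, 15 axonemal dyneins, 12 broadly expressed myosins and 12 specialised myosins. The last 6 symbols had no role group: the pseudogenes Kif4-ps, Kif22-ps and Dynlt1-ps1, the antisense transcripts Dnah2os and Kif16bos, and Myo15b. The rule uses symbols and no measured values.

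Kinesins and cytoplasmic dynein walk along microtubules in opposite directions and carry vesicles, organelles, RNA and chromosomes, while myosins work on actin filaments. Dynactin is the large cofactor that cytoplasmic dynein needs for processive movement, and in lymphocytes dynein is known for drawing antigen receptor clusters and the microtubule-organising centre to the immune synapse. Axonemal dyneins bend motile cilia and flagella, which B cells are not known to have, and their genes serve here as an internal background.

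Libraries came from animals labelled Nix-/-Bnip3-/- (DKO, 3 libraries) and from wild-type animals (WT, 3 libraries), all C57BL/6J. Nix is the protein of Bnip3l, and both deleted genes encode mitophagy receptors of the outer mitochondrial membrane. Each library was made from about 1000 cells. The labels used here give no ages, do not say how the genes were deleted, and do not say whether each library stands for its own animal. The p-values therefore measure spread between these libraries only, and that spread may be technical.

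Depth was low, with 444461 to 517057 counts in libraries labelled DKO and 312908 to 500527 in the WT libraries. A count was found for 23580 to 24787 symbols in libraries labelled DKO and for 17831 to 18486 in the WT libraries. The targeted gene Bnip3l had 10, 16 and 41 counts in libraries 1, 2 and 3 labelled DKO, against 1, 8 and 0 in WT libraries 1, 2 and 3, the order used throughout, so its mean went against the labels. Bnip3 had 2, 24 and 11 counts in libraries labelled DKO and 25, 62 and 6 in the WT libraries. Directions below are therefore between libraries as labelled. The 11 B cell markers in the table summed to 179, 204 and 221 counts in libraries labelled DKO and to 128, 148 and 76 in the WT libraries. These sums were 0.0403%, 0.0395% and 0.0429% of all counts in libraries labelled DKO. In the WT libraries they were 0.0409%, 0.0296% and 0.0238%, so the shares overlapped between the groups. The B cell receptor subunit gene Cd79a had at most 4 counts in any library. In bulk samples, fewer cells of a type and less RNA per cell cannot be told apart. The 9 monocyte and macrophage markers summed to 181, 378 and 422 counts in libraries labelled DKO and to 11, 71 and 63 in the WT libraries. In libraries labelled DKO, Itgam (81, 181 and 147, against 1, 9 and 21 in WT) and Lyz2 (35, 92 and 206, against 4, 0 and 10) had the most. Of the 5 markers tested, 3 had log2 fold changes (DKO over WT) above 0 and 2 below, Csf1r (-0.89) and Spic (-1.27). Cd14 was at 0 in each library but WT library 3. Markers of other lineages had counts as well. The 11 T cell markers summed to 75, 131 and 79 counts in libraries labelled DKO and to 58, 103 and 210 in WT. For 9 neutrophil markers the sums were 58, 169 and 645 against 55, 57 and 76. For 10 stromal and endothelial markers they were 222, 208 and 235 against 212, 159 and 138. For 8 erythroid markers they were 10, 19 and 18 against 30, 16 and 27. The part of these markers in the differences below was not tested.

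Axonemal dyneins had counts in every library, more regularly than the motors a lymphocyte uses. Of 41 cytoplasmic motors known from lymphocytes or from nearly all cells, 27 (65.9%) had a count in all 6 libraries, against 15 of 15 axonemal dyneins. Over the whole table, 26.9% of symbols had a count in all 6 libraries. Of the 41 cytoplasmic motors, 29 passed the filter on low counts, as did 15 of 15 axonemal dyneins and 25.3% of all symbols.

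Among the axonemal dyneins, Dnah8, a heavy chain best known from sperm flagella, had the most counts, with 248, 402 and 320 counts in libraries labelled DKO and 14, 114 and 211 in the WT libraries. Dnah10, of the inner dynein arm, had 291, 284 and 209 counts in libraries labelled DKO and 45, 95 and 46 in the WT libraries. Both were found in each library, though with fewer counts in WT library 1 than in any other. The axonemal gene with the fewest counts, Dnah14, had 33, 15 and 21 counts in libraries labelled DKO and 36, 6 and 5 in the WT libraries. Dync1h1, the heavy chain of cytoplasmic dynein and the cell's counterpart of these genes, had 207, 94 and 91 counts in libraries labelled DKO and 66, 248 and 96 in the WT libraries.

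Transcript length bears on such a comparison, because the cytoplasmic motor genes hold a median of 6.03 kb of exon and the axonemal dynein genes 12.01 to 26.8 kb (median 15.0 kb). Of 1459 other genes with at least 10 kb of exon, 88.1% had a count in all 6 libraries. Divided by exonic length, the median gene had a mean level of 10.1 normalized CPM (counts relative to the scaled library size) per kb among cytoplasmic motors and 16.9 among axonemal dyneins. The same median was 7.38 among the 1491 genes with at least 10 kb of exon, 5.36 among all 31032 genes with a length and 6.43 among 11 B cell markers. Receptor genes of the nose, which B cells are not known to need, lay lower, with medians of 1.37 for 1239 olfactory and 1.48 for 327 vomeronasal receptors. Single heavy chain genes overlapped on this scale, at 27.9 normalized CPM per kb for Dync1h1, against 33.0 for Dnah17, 25.2 for Dnah10, 22.01 for Dnah8 and 3.91 for Dnah14. In each of the 6 libraries the median cytoplasmic motor lay below the median axonemal dynein per kb, at 0.51, 0.658 and 0.428 times its level in libraries labelled DKO and at 0.763, 0.422 and 0.393 times in the WT libraries.

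**Figure D1:**
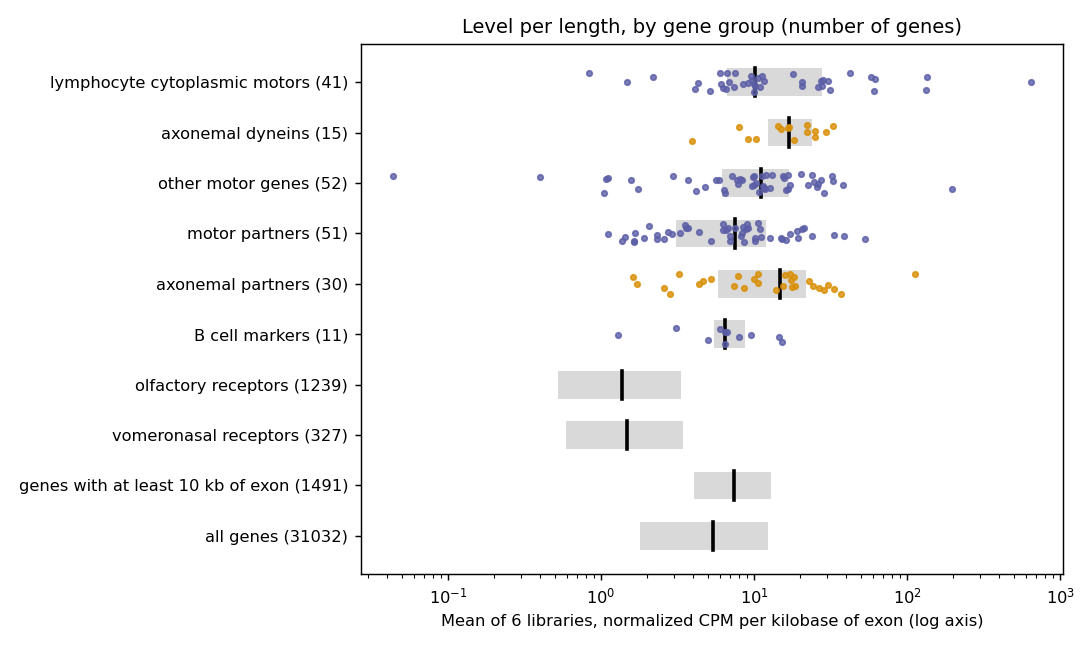
Mean level over the 6 libraries, in normalized CPM per kilobase of exon on a log axis, for 10 groups of genes. Points are single genes, grey bars span the middle quartiles and black lines mark medians. The axonemal dyneins (median 16.9) lie within the range of the cytoplasmic motors (median 10.1) and above the olfactory receptors (median 1.37).

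Summed levels gave another picture, because a few genes carried the sum. The summed level per kb of the cytoplasmic motors was 1.11, 0.928 and 2.84 times that of the axonemal dyneins in libraries 1, 2 and 3 labelled DKO and 14.4, 1.79 and 1.07 times in WT libraries 1, 2 and 3. Leaving out Kif1b alone, an alternative added after the values were seen, brought the ratios to 1.003, 0.734 and 2.62 in libraries labelled DKO and to 0.88, 1.36 and 0.922 in the WT libraries. Without Myo18a as well, the ratio in library 3 labelled DKO was 1.40. No test was run between these gene groups, since genes are not replicates. Across the 108 motor genes, mean normalized CPM and exonic length had a Spearman correlation of 0.71, and across 28233 genes with a length and a count it was 0.64. Genes share libraries, depth and amplification, so these coefficients only describe the table.

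Genes that build the rest of the axoneme had counts too. All 30 such genes in the table had at least 1 count, as did 88.5% of all symbols. Of the 30, 12 (40%) had a count in all 6 libraries, against 26.9% of all symbols. The filter kept 17 (56.7%, against 25.3% of all symbols), which were tested. Hydin, a protein of the central pair of microtubules, had 185, 189 and 350 counts in libraries labelled DKO and 130, 100 and 109 in the WT libraries. Foxj1, the transcription factor that starts the programme for motile cilia, had 2, 0 and 0 counts in libraries labelled DKO and 4, 0 and 0 in the WT libraries.

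The sequence before the start sites was compared between the same gene groups. In windows of 250 bases before RefSeq starts (GRCm38.p6), the dinucleotide CG, which reads the same on both strands, occurred a median of 18 times in 38 windows of the 30 cytoplasmic motor genes with a match (of 41) and 6.5 times in 14 windows of the 14 axonemal dyneins with one (of 15). All of these windows held at least 1 CG, as did 92.1% of 32851 windows of all genes, whose median was 6. The count exceeded that median in 78.9% of the cytoplasmic motor windows, in 50% of the axonemal ones and in 46.3% of all windows. Below, windows of Dync1h1 (plus strand, chr12:110601145-110601394), Dnah10 (plus strand, chr5:124724835-124725084) and Dnah12 (plus strand, chr14:26691304-26691553) are shown with each CG in capitals. They hold 22, 6 and 1 of them, and were chosen to show a cytoplasmic motor with many beside axonemal genes with fewer. The RefSeq start behind the Dnah12 window lies before the start of the gene in the GENCODE annotation.
Dync1h1: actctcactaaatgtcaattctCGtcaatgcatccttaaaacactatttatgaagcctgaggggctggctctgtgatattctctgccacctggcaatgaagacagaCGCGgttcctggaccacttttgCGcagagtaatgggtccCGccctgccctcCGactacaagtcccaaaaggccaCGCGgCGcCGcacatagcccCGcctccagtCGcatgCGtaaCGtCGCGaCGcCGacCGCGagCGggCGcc
Dnah10: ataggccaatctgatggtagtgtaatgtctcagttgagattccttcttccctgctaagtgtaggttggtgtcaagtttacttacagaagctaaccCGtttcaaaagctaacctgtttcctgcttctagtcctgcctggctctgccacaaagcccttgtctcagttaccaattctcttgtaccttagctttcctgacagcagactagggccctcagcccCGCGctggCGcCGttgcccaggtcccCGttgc
Dnah12: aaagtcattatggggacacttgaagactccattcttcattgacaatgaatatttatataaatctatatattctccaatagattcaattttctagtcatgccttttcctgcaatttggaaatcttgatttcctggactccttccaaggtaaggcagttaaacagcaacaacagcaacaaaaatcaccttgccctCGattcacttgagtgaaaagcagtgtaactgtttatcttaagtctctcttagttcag

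**Figure D2:**
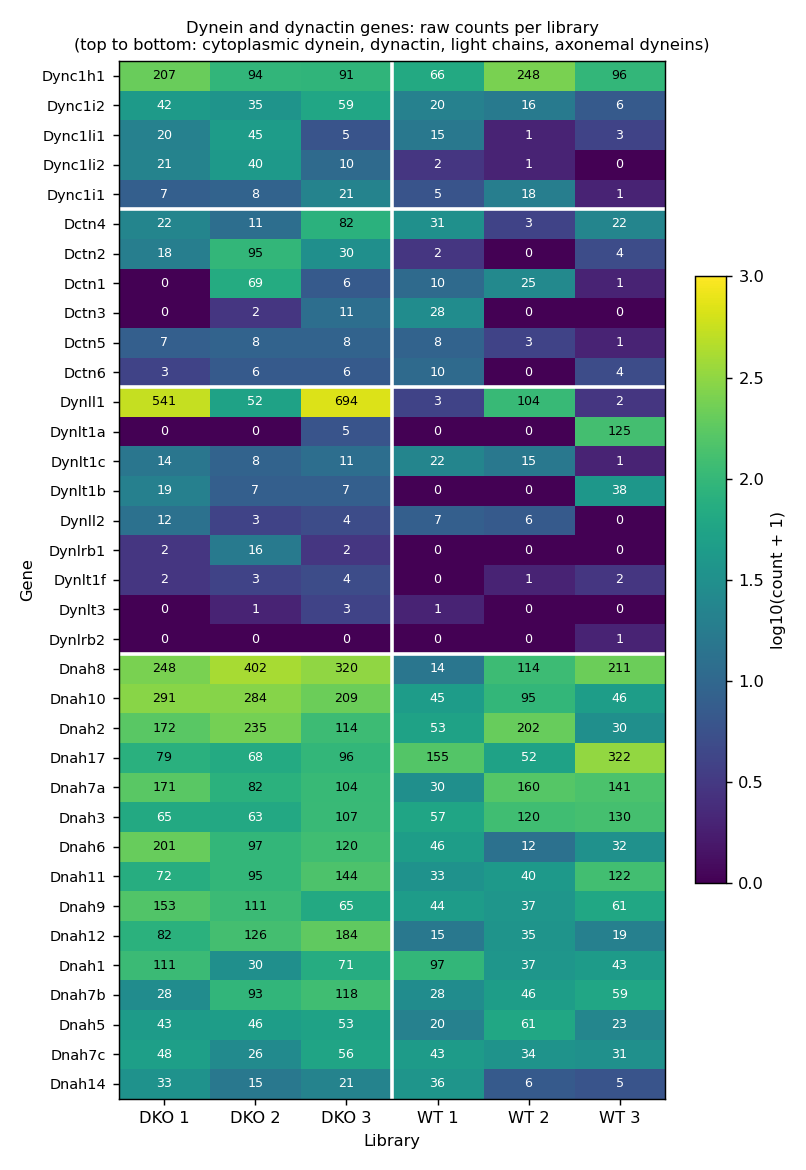
Raw counts of cytoplasmic dynein, dynactin, dynein light chain and axonemal dynein genes (rows) in the 6 libraries (columns), with colour on the scale log10(count + 1). All 15 axonemal dyneins have at least 5 counts in each library, while several light chains and dynactin subunits have 0 in some.

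Between the genotypes, no motor gene passed the test. Of the 108 symbols, 82 passed the filter on low counts and 0 had an adjusted p under 0.05 in edgeR's quasi-likelihood test over 8895 genes, where 0% of the tested genes were called in either direction. The smallest adjusted p of a motor gene was 0.39. At an unadjusted p under 0.05, 3 motor genes were higher in libraries labelled DKO (3.66%, against 5.49% of all tested genes) and 5 were lower (6.1%, against 6.59%), shares near or below those of all genes. DESeq2 called 1 motor gene, Myo19, lower (adjusted p = 0.0302) where it called 0.425% of the genes it tested higher and 1.52% lower, and limma-voom called 0, with 0% of all genes. The median log2 fold change, DKO over WT, was -0.52 over the 82 motor genes and -0.17 over all tested genes, with 31 motor genes above 0 (37.8%, against 45.5% of all tested genes) and 51 below. Scaling moved these medians to 0.24 and 0.62 when library totals alone were used, and then 47 motor genes lay above 0, so directions are relative to the scaling.

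Values of the 3 libraries labelled DKO lay wholly above those of the 3 WT libraries for 8 motor genes (9.76% of those tested, against 12.8% of all tested genes), and wholly below for 9 (11%, against 6.39%). Scaling changed the split, to 18 higher and 2 lower with library totals alone (23.8% and 2.51% of all tested genes) and to 9 and 4 with upper quartile scaling (16.2% and 4.96%). Without WT library 1, groups did not overlap for 27 motor genes (31.4%, against 34% of all tested genes), and without WT library 3 for 32 (36.4%, against 35.2%).

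**Figure D3:**
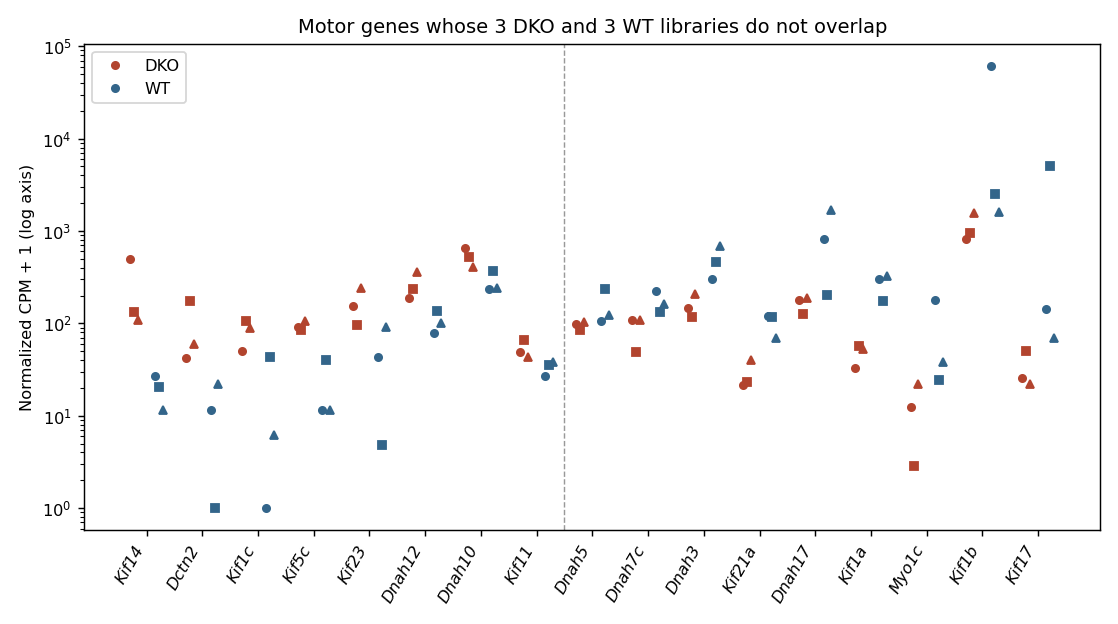
Normalized CPM plus 1, on a log axis, of the 17 motor genes whose libraries labelled DKO (red) and WT libraries (blue) do not overlap, in order of their fitted fold change. The symbols are libraries 1 (circle), 2 (square) and 3 (triangle), and the dashed line separates 8 genes with higher from 9 with lower values in libraries labelled DKO.

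Among transport kinesins, which haul cargo towards the plus ends of microtubules, 15 of 17 were tested, 3 with log2 fold changes above 0 and 12 below (median -1.15, or -0.43 with library totals alone). Groups did not overlap for 2 with higher and 4 with lower values in libraries labelled DKO, beside 12.8% and 6.39% of all tested genes. No heavy chain gene of conventional kinesin passed the test. Kif5b, the form of nearly all cells, had 24, 26 and 37 counts in libraries labelled DKO and 7, 8 and 31 in the WT libraries, with groups that overlapped once scaled (57.9 ± 12.3 normalized CPM in libraries labelled DKO and 76.8 ± 74.6 in the WT libraries, SD, n = 3 each). Its fitted log2 fold change of -0.40 (SE 0.97) turned to 0.85 without WT library 3 and to 0.35 with library totals alone. Kif5c (chromosome 2, 49619298 to 49774778, mm10), known chiefly from neurons, had 40, 45 and 54 counts in libraries labelled DKO, against 2, 10 and 2 in the WT libraries. All 3 libraries labelled DKO lay above all WT libraries (log2 fold change 2.17, SE 0.98, edgeR adjusted p = 0.412), and the value was 3.14 without WT library 2. Kif5a, also a neuronal form, had 13, 20 and 21 counts in libraries labelled DKO and 27, 4 and 16 in the WT libraries.

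The kinesin-3 genes Kif1a, Kif1b and Kif1c, whose products move vesicle precursors and organelles, did not pass the test either. Kif1c, which carries vesicles in many cell types, had 22, 57 and 45 counts in libraries labelled DKO and 0, 11 and 1 in the WT libraries (80.6 ± 28.2 normalized CPM in libraries labelled DKO and 15.9 ± 23.2 in the WT libraries, SD, n = 3 each). The fitted log2 fold change came to 2.25 (SE 1.21, edgeR adjusted p = 0.452), or 4.82 without WT library 2. Kif1a (chromosome 1, 93015464 to 93101951, mm10), a transporter of synaptic vesicle precursors, lay the other way, with 14, 30 and 27 counts in libraries labelled DKO and 57, 45 and 62 in the WT libraries. This was 46.4 ± 12.8 normalized CPM in libraries labelled DKO and 266 ± 80.8 in the WT libraries (SD, n = 3 each), with a log2 fold change of -2.51 (SE 0.95, edgeR adjusted p = 0.39) that stayed between -2.70 and -2.14 when any 1 library was left out. Kif21a, a kinesin-4 that restrains microtubule growth at the cell cortex, had 9, 12 and 20 counts in libraries labelled DKO and 23, 30 and 13 in the WT libraries. After scaling its groups did not overlap either (log2 fold change -1.89, SE 0.91, edgeR adjusted p = 0.419), and with any 1 library left out it stayed between -2.14 and -1.59.

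Kif1b (chromosome 4, 149176319 to 149307693, mm10) moves mitochondria and synaptic vesicle precursors in mammals. Over the 6 libraries it had the most counts of any motor gene, though in each library but WT library 1 another motor gene had more. Kif1b had 366, 510 and 810 counts in libraries labelled DKO and 11676, 645 and 309 in the WT libraries. WT library 1 alone held 89.1% of its summed normalized CPM, and Kif1b made up 3.73% of all counts of that library. The fitted log2 fold change of -4.29 (SE 2.62, edgeR adjusted p = 0.495) became -0.82 without that library. Kif17, a motor of dendrites and cilia, had 11, 27 and 11 counts in libraries labelled DKO and 27, 1309 and 13 in the WT libraries. The fitted log2 fold change was -5.76 (SE 2.16), or -1.65 without WT library 2, which held 94.3% of its normalized CPM. Scaled values of both genes lay lower in all 3 libraries labelled DKO, but their raw counts overlapped, so that this separation depends on scaling. The other 7 tested transport kinesins, among them both motor subunits of the heterotrimeric kinesin-2 (Kif3a and Kif3b), lay between -1.90 (Kif26b) and 1.36 (Kif13a), all with groups that overlapped.

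Of the light chains that tie conventional kinesin to its cargo, 2 of 4 were tested. Klc4 had 58, 65 and 17 counts in libraries labelled DKO and 16, 12 and 4 in the WT libraries (log2 fold change 0.91, SE 0.98), and Klc1 had 15, 53 and 11 in libraries labelled DKO and 13, 6 and 0 in the WT libraries (0.75, SE 1.21). The groups overlapped for both genes. Klc2 had at most 17 counts in a library and Klc3 at most 2.

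Mitotic kinesins build the spindle and divide the cell, so their transcripts mark cycling cells. Of 13, 10 were tested, 6 with values above 0 and 4 below (median 0.11, turning to -0.025 with the size factors of DESeq2). Groups did not overlap for 3 of these 10, all higher in libraries labelled DKO, against 12.8% of all tested genes. Kif14 (chromosome 1, 136466343 to 136531511, mm10), which acts in cytokinesis, had 221, 71 and 56 counts in libraries labelled DKO, against 5, 5 and 2 in the WT libraries. This was the smallest p of any motor gene, with 246 ± 220 normalized CPM in libraries labelled DKO and 18.6 ± 7.83 in the WT libraries (SD, n = 3 each), a log2 fold change of 3.70 (SE 1.11) and an edgeR adjusted p of 0.39 (DESeq2 adjusted p = 0.0552). Without library 1 labelled DKO it was 2.79. Kif23, a subunit of the central spindle complex centralspindlin, had 67, 51 and 124 counts in libraries labelled DKO and 8, 1 and 17 in the WT libraries (log2 fold change 1.85, SE 1.11, or 2.92 without WT library 3). Kif11, the motor that pushes spindle poles apart, had 21, 35 and 22 counts in libraries labelled DKO and 5, 9 and 7 in the WT libraries (0.66, SE 0.88).

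For the other tested mitotic kinesins the groups overlapped once scaled, though raw counts of Kif4 did not. Kif2c, which takes microtubules apart at kinetochores, had 27, 63 and 31 counts in libraries labelled DKO and 4, 172 and 14 in the WT libraries, and its log2 fold change of -1.68 (SE 1.23) turned to 0.78 without WT library 2. Kif22, a chromosome-binding kinesin, had 46, 61 and 11 counts in libraries labelled DKO and 75, 5 and 15 in the WT libraries, with a value of -1.04 (SE 1.17) that turned to 0.77 without WT library 1. Kif4, a chromosome kinesin, had 12, 12 and 22 counts in libraries labelled DKO and 5, 1 and 0 in the WT libraries (1.62, SE 1.18, or 3.71 without WT library 1), and its reads may be shared with the pseudogene Kif4-ps, which had 16, 14 and 19 counts in libraries labelled DKO and 4, 1 and 7 in the WT libraries. The other 4 tested, Kif15, Kif18a, Kif20a and Kif20b, lay between -1.08 and 0.11 with groups that overlapped. Kif2b, which was not tested, had 0 counts in each library labelled DKO and 0, 35 and 5 in the WT libraries, a mean at least 26.9-fold lower when 3 counts over the DKO group are taken as the floor, or at least 6.57-fold lower without WT library 2, which held 83.7% of its normalized CPM. The proliferation marker Mki67 had 55, 391 and 41 counts in libraries labelled DKO and 12, 18 and 31 in the WT libraries, with a log2 fold change of 1.65 (SE 1.16), or 0.17 without library 2 labelled DKO, and whether cycling cells differed in number between the groups was not tested.

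Of the other kinesins, 5 of 7 were tested. Kif24, a centriole protein that holds back cilium formation, had 30, 70 and 36 counts in libraries labelled DKO and 20, 221 and 4 in the WT libraries, and its value of -1.88 (SE 1.30) turned to 0.54 without WT library 2. Kif9, of cilia and flagella, had 91, 66 and 23 counts in libraries labelled DKO and 13, 12 and 25 in the WT libraries (0.60, SE 0.96). Kif19a, which trims cilia, had 0, 0 and 24 counts in libraries labelled DKO and 8, 1 and 16 in the WT libraries. Its fitted value ran from -6.72 without library 3 labelled DKO to -0.43 without WT library 3. Kif6 and Kif27, both linked to cilia, lay at 0.46 and 0.31. Groups overlapped for all 5.

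Cytoplasmic dynein subunits had low counts apart from the heavy chain. Dync1h1 (chromosome 12, 110601452 to 110666945, mm10) averaged 272 ± 170 normalized CPM in libraries labelled DKO and 602 ± 318 in the WT libraries (SD, n = 3 each), with a log2 fold change of -1.14 (SE 1.23, edgeR adjusted p = 0.707), or -0.60 without WT library 2. The intermediate chain gene Dync1i2, which binds dynactin, had 42, 35 and 59 counts in libraries labelled DKO and 20, 16 and 6 in the WT libraries (0.47, SE 0.91). The light intermediate chain gene Dync1li1, which holds cargo adaptors, had 20, 45 and 5 in libraries labelled DKO and 15, 1 and 3 in the WT libraries (0.51, SE 1.18), with -0.14 without library 2 labelled DKO and 2.31 without WT library 1. Its paralogue Dync1li2 had 21, 40 and 10 counts in libraries labelled DKO and 2, 1 and 0 in the WT libraries, too few to pass the filter, and the raw counts did not overlap. For dynein-2, which returns cargo within cilia, Dync2h1 had 49, 58 and 42 counts in libraries labelled DKO and 13, 80 and 57 in the WT libraries (-1.18, SE 0.97). Dync2li1 had 13, 67 and 40 in libraries labelled DKO and 1, 13 and 7 in the WT libraries (1.30, SE 1.05), so the 2 subunits lay in opposite directions with groups that overlapped.

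Light chains of dynein are small genes, and 2 of 9 were tested. Dynll1, also called LC8, a hub protein that binds many partners besides dynein, had 541, 52 and 694 counts in libraries labelled DKO and 3, 104 and 2 in the WT libraries. Levels in library 2 of each group ran against the others, so that the groups overlapped (log2 fold change 2.63, SE 1.73, edgeR adjusted p = 0.525), and without WT library 2 the value was 6.09. Dynlt1c, a Tctex-type light chain, had 14, 8 and 11 counts in libraries labelled DKO and 22, 15 and 1 in the WT libraries (-1.39, SE 1.08, or -0.45 without WT library 1). Dynlt1a had 0, 0 and 5 counts in libraries labelled DKO and 0, 0 and 125 in the WT libraries, while Dynlt1b had 19, 7 and 7 in libraries labelled DKO and 0, 0 and 38 in the WT libraries. Dynlt1a, Dynlt1b, Dynlt1c and Dynlt1f are near-identical copies, among which the authors' counting could have split reads. Dynlrb1, of the roadblock family, had 2, 16 and 2 counts in libraries labelled DKO and was at 0 in each WT library, a mean at least 2.69-fold higher when 3 counts over the WT group are taken as the floor. Library 2 labelled DKO held 77.8% of its normalized CPM, and without it the mean of libraries labelled DKO lay under that floor.

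Dynactin was thinly covered, with 3 of 6 subunits tested. Dctn2 (chromosome 10, 127266368 to 127281950, mm10), or dynamitin, which forms the shoulder of the complex, had 18, 95 and 30 counts in libraries labelled DKO and 2, 0 and 4 in the WT libraries. That was 91.2 ± 73.0 normalized CPM in libraries labelled DKO and 10.5 ± 10.5 in the WT libraries (SD, n = 3 each), with a log2 fold change of 3.13 (SE 1.25, edgeR adjusted p = 0.39) that lay between 2.37 and 4.23 with any 1 library left out. Dctn1, the large subunit that binds microtubules and the dynein intermediate chain, did not follow it. It had 0, 69 and 6 counts in libraries labelled DKO and 10, 25 and 1 in the WT libraries, and its value ran from -2.96 without library 2 labelled DKO to 0.73 without WT library 2. Dctn4 had 22, 11 and 82 counts in libraries labelled DKO and 31, 3 and 22 in the WT libraries (-0.33, SE 1.13), and Dctn3, not tested, had 0, 2 and 11 in libraries labelled DKO and 28, 0 and 0 in the WT libraries. Dctn5 and Dctn6, of the pointed end, had 35 and 29 counts over the 6 libraries.

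Axonemal dyneins, the background group, had 0 of 15 genes past the edgeR test. Of 29 cytoplasmic motors tested, 10 lay above 0 and 19 below (median -0.26, range -5.61 to 3.13), while of 15 axonemal dyneins 4 lay above 0 and 11 below (median -0.65, range -2.46 to 1.30). With library totals alone both medians turned, to 0.48 for the cytoplasmic motors and 0.11 for the axonemal dyneins. Groups did not overlap for 2 cytoplasmic motors higher and 2 lower in libraries labelled DKO, and for 2 axonemal dyneins higher and 4 lower, where the shares of all tested genes were 12.8% higher and 6.39% lower. Dnah12 (chromosome 14, 26693274 to 26891703, mm10), an inner arm heavy chain, had 82, 126 and 184 counts in libraries labelled DKO and 15, 35 and 19 in the WT libraries (log2 fold change 1.30, SE 0.95, between 1.10 and 1.63 with 1 library left out). Dnah10, whose counts stand above, was at 0.91 (SE 1.15). Dnah17 (chromosome 11, 118021723 to 118130634, mm10), a heavy chain of the outer arm known from sperm, lay the other way, with 79, 68 and 96 counts in libraries labelled DKO and 155, 52 and 322 in the WT libraries (-2.46, SE 1.38, edgeR adjusted p = 0.467, or -1.56 without WT library 3).

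The other axonemal genes whose groups did not overlap all had lower values in libraries labelled DKO. Dnah3, of the inner arm, had 65, 63 and 107 counts in libraries labelled DKO and 57, 120 and 130 in the WT libraries (-1.62, SE 1.11). Dnah5, an outer arm heavy chain, had 43, 46 and 53 in libraries labelled DKO and 20, 61 and 23 in the WT libraries (-0.70, SE 0.89), with 0.11 when library totals alone were used. Dnah7c had 48, 26 and 56 in libraries labelled DKO and 43, 34 and 31 in the WT libraries (-0.97, SE 0.91). Raw counts of these 3 genes and of Dnah17 overlapped, so that the separation of their groups depends on scaling. Dnah7a, Dnah7b and Dnah7c are close copies on chromosome 1, between which reads could be split. The other 9 axonemal dyneins lay between -1.04 (Dnah7a) and 0.93 (Dnah6), with groups that overlapped.

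**Figure D4:**
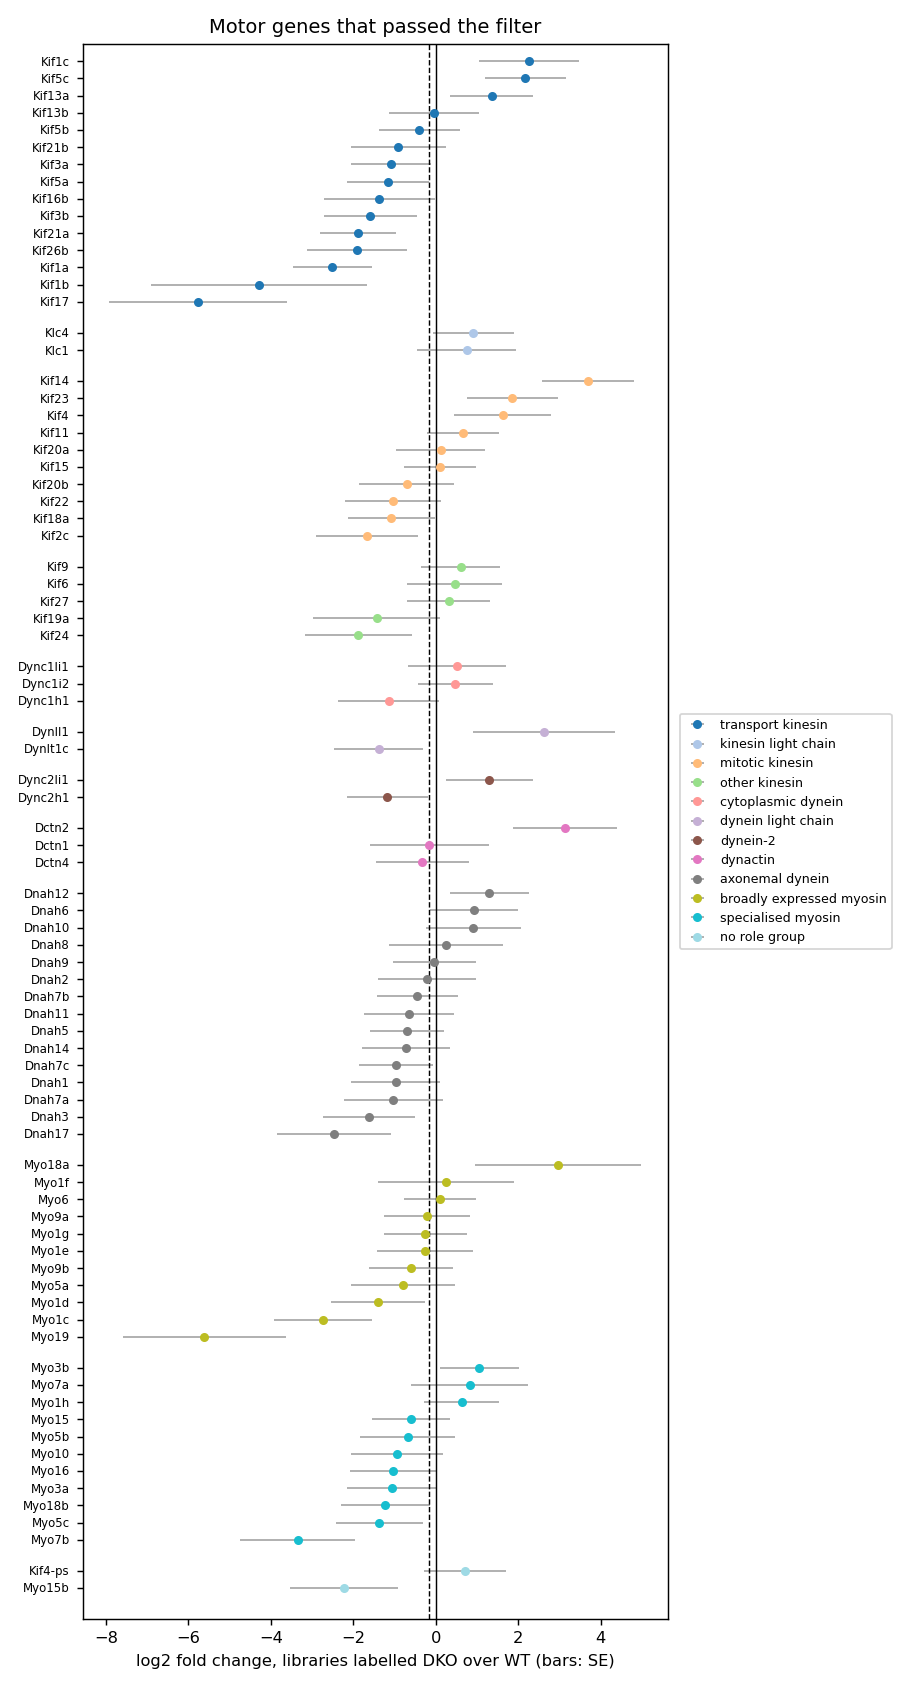
Log2 fold changes of 81 of the 82 tested motor genes, libraries labelled DKO over WT libraries, with standard errors as bars, ordered by role. The solid line marks 0 and the dashed line the median of all tested genes (-0.17). Axonemal dyneins range from -2.46 to 1.30, and 0 of the 82 passed the edgeR test.

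Myosins were counted broadly, with 24 of 25 in all 6 libraries. Of the 12 broadly expressed ones, 4 lay above 0 and 8 below (median -0.26, turning to 0.49 with library totals alone). Myo1f and Myo1g are class I myosins of blood cells. Myo1f, with 244, 50 and 801 counts in libraries labelled DKO and 85, 5 and 264 in the WT libraries, had the highest level per kb of any myosin (136 normalized CPM per kb). Library 2 was lowest in each group, and the log2 fold change of 0.25 (SE 1.66) ran from -0.82 without library 3 labelled DKO to 1.73 without WT library 3. Myo1g had 51, 16 and 20 counts in libraries labelled DKO and 9, 8 and 27 in the WT libraries, or 61.2 ± 47.1 normalized CPM in libraries labelled DKO and 73.2 ± 59.9 in the WT libraries (SD, n = 3 each), and its value of -0.26 (SE 1.00) turned to 0.72 without WT library 3. Myo9b, a myosin of leukocytes and many other cells, had 23, 34 and 24 counts in libraries labelled DKO and 29, 22 and 2 in the WT libraries (-0.61, SE 1.02, or 0.22 without WT library 1).

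Myo1c, a motor that links membranes to actin, was the 1 broadly expressed myosin whose groups did not overlap. It had 5, 1 and 11 counts in libraries labelled DKO and 34, 6 and 7 in the WT libraries (11.5 ± 9.73 normalized CPM in libraries labelled DKO and 79.2 ± 85.5 in the WT libraries, SD, n = 3 each). The log2 fold change came to -2.74 (SE 1.19, edgeR adjusted p = 0.404), or -1.29 without WT library 1.

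Myo19 (chromosome 11, 84880148 to 84911226, mm10) is the myosin of the outer mitochondrial membrane, the membrane on which Nix and Bnip3 sit. It had 13, 11 and 1 counts in libraries labelled DKO and 24, 625 and 5 in the WT libraries. Library 1 labelled DKO lay above WT library 3 once scaled, so the groups overlapped, and WT library 2 held 92.2% of the summed normalized CPM. The fitted log2 fold change came to -5.61 (SE 1.98, edgeR adjusted p = 0.39), or -2.08 without WT library 2. Another 5 broadly expressed myosins lay between -1.41 (Myo1d) and 0.10 (Myo6), and groups overlapped for each. Myo18a, a myosin of the Golgi apparatus, had 25, 23 and 2626 counts in libraries labelled DKO and 39, 78 and 30 in the WT libraries, with a value of 2.97 (SE 2.01) that turned to -2.06 without library 3 labelled DKO.

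Specialised myosins of hair cells, gut, muscle and glands were found at levels like those of the broadly expressed ones, with median levels of 18.7 normalized CPM per kb for the specialised and 19.3 for the broadly expressed myosins. Of 11 tested, 3 lay above 0 and 8 below (median -0.94, or -0.20 with library totals alone), and groups did not overlap for 0. Myo7a, of the hair bundle of the inner ear, had 13, 535 and 21 counts in libraries labelled DKO and 55, 61 and 14 in the WT libraries, and its value of 0.82 (SE 1.42) turned to -2.40 without library 2 labelled DKO. Myo7b, of the intestinal brush border, had 12, 7 and 39 in libraries labelled DKO and 21, 264 and 10 in the WT libraries (-3.35, SE 1.39, edgeR adjusted p = 0.396, or -1.03 without WT library 2). Myo5c, of gland cells, had 26, 30 and 23 in libraries labelled DKO and 62, 7 and 12 in the WT libraries (-1.37, SE 1.06), and Myo18b, of muscle, had 31, 51 and 22 in libraries labelled DKO and 9, 12 and 75 in the WT libraries (-1.23, SE 1.08). Myo5c turned to 0.31 without WT library 1, and Myo18b to 0.63 without WT library 3. The other 7 tested lay between -1.08 (Myo3a) and 1.05 (Myo3b). Myo1a, another brush border myosin, was not tested and had 2, 295 and 3 counts in libraries labelled DKO and 1, 0 and 4 in the WT libraries.

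Counts concentrated in 1 library were common. For 26 of the 82 tested motor genes (31.7%), over 50% of the summed normalized CPM lay in 1 library, against 29.7% of all tested genes. That library was a WT library for 21 of the 26 genes and a library labelled DKO for 5. This split was not counted over all tested genes. Scaling made 1 count worth 3.86 to 5.25 normalized CPM in the WT libraries, against 1.84 to 2.26 in libraries labelled DKO. With 1 library left out, the fold change of 59 of the 82 genes moved by over 1.5-fold, and 40 changed sign. Shares of all tested genes for these moves were not computed either. The median log2 fold change over all genes that passed the filter moved as well. It went from -0.17 to 0.084, 0.091 and 0.085 without WT libraries 1, 2 and 3. With 1 library labelled DKO left out it lay between -0.22 and -0.16. The part of this shift in the sign changes was not tested. Outside the 82 tested genes, counts over the 6 libraries ran from 1 (Kif3c, of kinesin-2, Dynlrb2 and Dynlt1-ps1) to 305 (Myo1a).

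**Figure D5:**
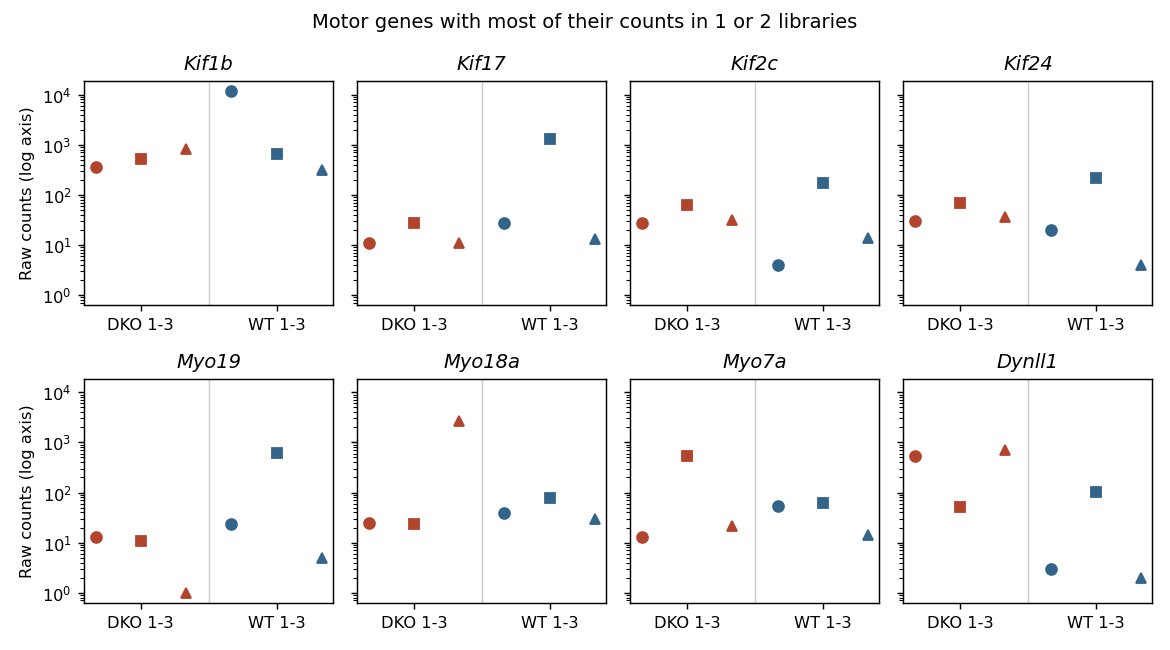
Raw counts on a log axis of 8 motor genes in the 3 libraries labelled DKO (red) and the 3 WT libraries (blue), with libraries 1, 2 and 3 as circle, square and triangle. Kif1b reaches 11676 in WT library 1, Kif17 1309 in WT library 2 and Myo18a 2626 in library 3 labelled DKO, far from the other libraries of their groups.

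Genes that work with the motors but are outside these families, such as adaptors, dynactin's actin-related core and regulatory light chains, gave a list of 52 in the table, of which 28 were tested, 19 above 0 and 9 below (median 0.35). None passed the edgeR test, 1 was higher and 1 lower at an unadjusted p under 0.05 (5.49% and 6.59% of all tested genes), and groups did not overlap for 3 higher and 1 lower (12.8% and 6.39% of all tested genes). These shares were below those of all genes. Ndel1, which with Lis1 helps dynein start moving, had 24, 44 and 21 counts in libraries labelled DKO and 2, 3 and 0 in the WT libraries (log2 fold change 2.90, SE 1.12, edgeR adjusted p = 0.39). Actr10, of the pointed end of the dynactin filament, had 27, 16 and 29 counts in libraries labelled DKO and 0, 6 and 4 in the WT libraries (1.68, SE 1.10). Rhot1, or Miro1, which ties mitochondria to kinesin and to Myo19, had 131, 155 and 102 counts in libraries labelled DKO and 13, 28 and 20 in the WT libraries. Numa1, which anchors dynein at spindle poles, had lower scaled values in all 3 libraries labelled DKO, with 4, 13 and 11 counts, against 9, 68 and 8 in the WT libraries (-2.68, SE 1.08, or -1.23 without WT library 2).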

How the data were processed

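Per the labels' protocols, polyA-enriched libraries were built from RNA of some 1000 sorted cells each with the QIAseq FX Single Cell RNA kit. Raw read counts, not normalized, were deposited by the authors as 1 table with a row for each gene symbol. CASAVA, STAR, edgeR, R 3.6.3 and mm10 are named in the submitters' processing notes without roles. No counter, strand setting or annotation is given in the sources used here. Overlapping and antisense genes can therefore share reads, and 12 motor genes share over 10% of their exon with another gene.

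Genes were kept by filterByExpr (minimum count 10), scaled by TMM and tested with edgeR 4.0.16 (quasi-likelihood F test, robust, no covariate, all 6 libraries), with Benjamini-Hochberg adjustment over 8895 genes. Each standard error was taken as the size of the log2 fold change over the root of F. Normalized CPM are counts over scaled library size, and 1 count was worth 1.84 to 5.25 of them. Floors cover counting error only. Exonic lengths are unions of exons in GENCODE mouse release 21 (mm10), matched by symbol for 31032 symbols and all 108 motor genes. RefSeq windows were matched for 84 motor genes. Steps were tested on simulated data.

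Named with values were, in each role group, the tested genes with the 3 smallest p and the 2 highest normalized CPM per kb, tested genes whose groups did not overlap, and Kif5b, Kif1b, Kif1c, Dync1h1, Dctn1, Dynll1, Myo9b, Myo1g, Myo1f and Myo19. Genes described beyond the rule were chosen after their values were seen. Motor genes, role groups and lists were chosen with earlier results of these data known. Alternatives were other scalings, filters, DESeq2 1.42.0, limma-voom, a replicate block and each library left out. The values of 1 motor gene are not reported here, though it is counted in the totals.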

Additional observations from a re-analysis of the deposited data

How the results depend on the processing

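Over all tested genes, edgeR called 0, against 130 (22 higher and 108 lower in libraries labelled DKO) with no filter on low counts and 215 (47 and 168) by DESeq2, which called 1 motor gene. Motor genes whose groups did not overlap numbered 17 (20.7%, against 19.2% of all tested genes), and 20 to 32 with 1 library left out, or 23.8% to 36.4%, against 25.5% to 35.2% of all tested genes (27 without WT library 1, 32 without WT library 3). The split was 8 higher and 9 lower, against 18 and 2 with library totals alone (23.8% and 2.51% of all tested genes) and 9 and 4 with upper quartile scaling (16.2% and 4.96%). The median ratio of cytoplasmic motors to axonemal dyneins per kb was 1.45 for sums, 0.469 for the median gene and 0.962 without Kif1b, the last added after the data were seen. Other settings left the ratio of sums above 1 in each library. It ran from 1.11 to 17.3 with no division by length, where sums cover 41 and 15 genes. Per kb of gene span, also added after the data were seen, it ran from 1.47 to 23.0.

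Of 45 named motor genes under 8 other settings, 344 of 360 values kept their direction and their side of the threshold, and 1, Myo19 by DESeq2, passed it. Signs turned with library totals alone for Dnah5 (0.11), Myo9b (0.16), Myo1g (0.48), Dctn4 (0.37), Dctn1 (0.72) and Kif5b (0.35). They turned by limma-voom for Myo9b (0.17) and Myo7a (-0.38), with no filter for Myo1g (0.067), Dctn4 (0.027) and Dctn1 (0.16), and for Dctn1 also with upper quartile scaling (0.14) and a mean CPM of at least 10 (0.053). With 1 library left out, values ran from -2.96 to 0.73 for Dctn1, -1.34 to 0.35 for Dctn4, -0.14 to 2.31 for Dync1li1, -1.52 to 0.77 for Kif22, -2.35 to 0.54 for Kif24, -2.15 to 0.78 for Kif2c, -0.74 to 0.85 for Kif5b, -0.045 to 2.10 for Klc1, -2.06 to 3.66 for Myo18a, -1.63 to 0.63 for Myo18b, -0.82 to 1.73 for Myo1f, -0.92 to 0.72 for Myo1g, -1.82 to 0.31 for Myo5c, -2.40 to 1.5 for Myo7a and -1.06 to 0.22 for Myo9b. The cause was not tested.

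Deviations of same-numbered libraries correlated at 0.024, 0.031 and 0.038. These values cannot show whether libraries were paired, because counts were low and differently numbered libraries were not compared. A fit with the replicate number as a block called 0 motor genes and turned Myo18a (-0.74) and Myo7a (-0.70). At this depth 3 counts in a library were worth 5.52 to 15.8 normalized CPM, and differences of genes near that level were not detectable. Higher counts did not lift this limit. The common coefficient of variation between libraries of a group (SD over mean), as fitted by edgeR, was 0.915, with 3 libraries per group. EdgeR called 0 of 8895 genes at any level. A gene that did not pass is therefore not shown to be unchanged.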

Other observations

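Among the 17 axonemal partner genes tested, 3 are given here that were chosen after their values were seen. Spag6, of the central pair of motile cilia, had 5, 9 and 9 counts in libraries labelled DKO and 43, 51 and 14 in the WT libraries (log2 fold change -3.42). Spag17, of the same structure, had 16, 18 and 27 counts in libraries labelled DKO and 9, 168 and 137 in the WT libraries (-3.53). Dnal1, an axonemal dynein light chain, lay the other way, with 40, 59 and 295 counts in libraries labelled DKO and 14, 10 and 13 in the WT libraries (2.10, or 0.84 without library 3 labelled DKO). None passed the edgeR test.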
